A study of Oryza sativa with 8 samples.

Results

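The leaf transcriptome of rice seedlings under drought was compared with that of seedlings sampled before the treatment, over both lines of the series together. All 8 of the 8 arrays entered the comparison, 4 drought arrays against 4 normal arrays, chosen by the growth condition in their labels. The plants were WT (the japonica cultivar Zhonghua 11) and a line that overexpresses the GRAS-family gene OsGRAS23 (OE), and each of the 4 groups (WT normal, OE normal, WT drought, OE drought) held 2 arrays. Normal leaves came from 21-day-old seedlings grown in culture solution with no agent added. Drought leaves came from seedlings laid on filter paper until the leaves of WT began to roll, so the drought arrays also differ from the normal ones in sampling time and handling, which cannot be told apart from water loss here. Each array held pooled leaves of 20 seedlings, with 6 µg of RNA labelled. The promoter of the transgene and the number of OE lines are not given in the sources used here, and OsGRAS23 itself was not matched to a probe set.

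Rice leaves that lose water accumulate the hormone abscisic acid (ABA), which closes stomata and switches on genes for protective proteins. ABA is sensed by PYL receptors, which release SnRK2 kinases (SAPK proteins in rice) from inhibition by clade A PP2C phosphatases, and the kinases activate bZIP transcription factors. Drought is also known to act through ABA-independent routes, among them DREB factors and the heat stress factors that control chaperone genes, and to slow leaf growth and cell division.

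Expression was measured as log2 RMA values, an Affymetrix signal summarised per probe set, on an array with 57381 probe sets, of which 57194 were tested after 187 array controls were left out. A difference of 1 on this scale is a 2-fold change. Array medians lay between 4.80 and 4.90, arrays of the same group correlated at 0.987 to 0.991, and drought arrays correlated with normal arrays at 0.947 to 0.979. The upper quartile was 6.89 to 7.10 on the normal arrays and 6.73 to 6.86 on the drought arrays. The lower quartile was 3.55 to 3.61 and 3.63 to 3.72. The values thus spread less under drought, and sorted values differed by up to 0.41 between arrays. The part of this difference in small falls of bright genes was not tested. The 27 probe sets of the hybridisation spikes, which are added in a fixed amount, averaged 9.61 to 10.70 on the normal arrays and 11.04 to 11.74 on the drought arrays, with no overlap in any of the 27, and the part of this difference in the results was not tested.

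The leaf label was checked against marker genes. RBCS (the small subunit of Rubisco), CAB2R, LHCP and RCAA1 had log2 values between 12.18 and 14.12 on all 8 arrays, whereas RBCS1, the remaining leaf marker, stayed between 3.22 and 3.66. The 6 panicle and flower markers averaged 3.42 to 3.67 per array, near the bottom of the scale. Root markers were present and uneven. Lsi1, a silicon channel of roots, had log2 values of 10.75 and 11.80 on the WT normal arrays, 9.27 and 11.89 on the OE normal arrays, 9.20 and 9.28 on the WT drought arrays and 9.43 and 9.95 on the OE drought arrays. The summed level of the 6 root markers (log2 of the sum of linear values) spanned 9.83 to 12.19 on the normal arrays and 10.31 to 10.58 on the drought arrays, with replicate 2 highest in both normal groups. The summed level of the 5 leaf markers was 15.68 to 15.86 on the normal arrays and 15.03 to 15.50 on the drought arrays. None of the leaf markers passed the test with the 2-fold minimum, and in these bulk samples fewer cells of a type and less RNA per cell cannot be told apart.

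**Figure D1:**
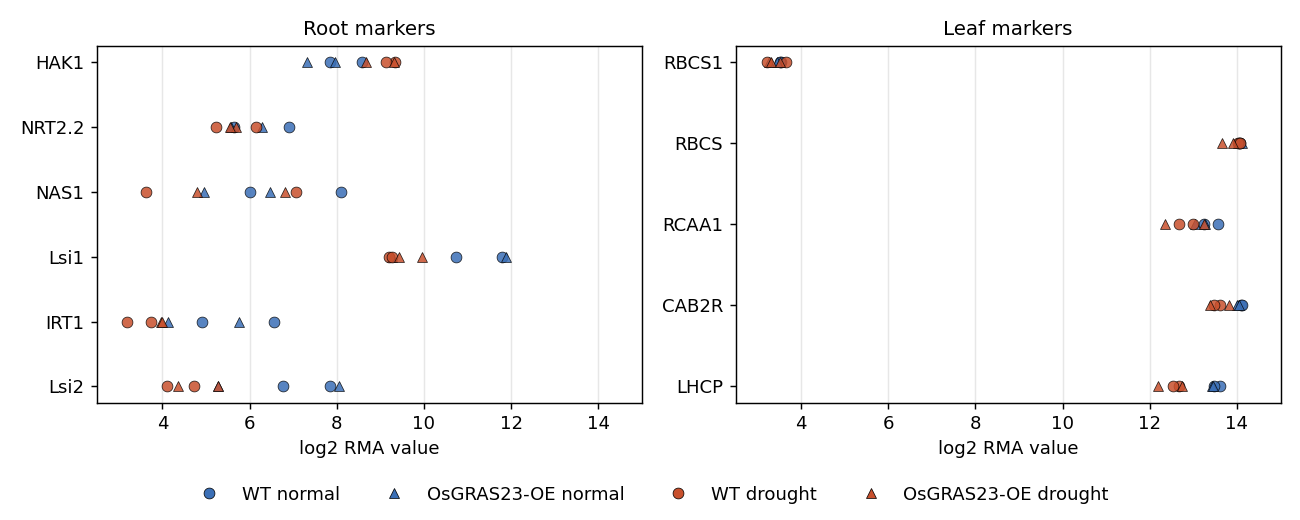
Each point is the log2 RMA value (x axis) of 1 root or leaf marker gene (y axis) on 1 array, with blue for normal, red for drought, circles for WT and triangles for OE. Lsi1, Lsi2 and IRT1 spread widely over the 4 normal arrays, while RBCS, CAB2R, LHCP and RCAA1 stay above 12.

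With the deposited values, more probe sets were lower than higher under drought. A probe set was called when limma's Benjamini-Hochberg adjusted p over all 57194 probe sets was below 0.05 and the change was at least 2-fold, with the line as a covariate. On this rule 1185 probe sets (2.07%) were higher and 1622 (2.84%) were lower under drought. The large changes were mostly rises. At least 4-fold changes numbered 282 rises and 91 falls, and at least 16-fold changes 24 rises and 2 falls. After quantile normalization the counts were 1362 higher and 1291 lower, and after median centring 1084 and 1903, so higher calls made up 42.2%, 51.3% and 36.3% of all calls under the deposited values, quantile normalization and median centring, and the direction of the excess depended on the scaling. Without WT normal replicate 2 the lower count dropped to 1079, and this array had the highest value of the 4 normal arrays in 72.4% of the probe sets called lower.

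Most of the called rises were at least 2-fold in each line, a description of the values that made the call and not a further test. Of the 1185 higher probe sets, 881 (74.3%, or 1.54% of all tested) rose at least 2-fold in WT and in OE, and of the 1622 lower ones 755 (46.5%, or 1.32% of all tested) fell at least 2-fold in each. The higher probe sets changed by a median of 1.50 in WT and 1.46 in OE on the log2 scale. For the lower probe sets the medians were -1.51 in WT and -0.99 in OE, and 831 of them fell less than 2-fold in OE against 36 in WT. Among these lower probe sets, OE drought replicate 1 was the highest drought array in 58.9% and WT normal replicate 2 the highest normal array in 72.4%. The part of these single arrays in the gap between the lines was not tested. The difference between the lines was tested with limma's interaction term, which called no probe set (lowest adjusted p = 0.394), with 3839 probe sets (6.71%) at an unadjusted p below 0.05. No called probe set changed in opposite directions in WT and OE. The rule for a call makes this nearly certain beforehand, since opposite changes shrink the pooled change and widen its error. Over all 57194 probe sets the change in WT and the change in OE had a Pearson correlation of 0.785, a description over probe sets that share arrays and are not replicates.

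**Figure D2:**
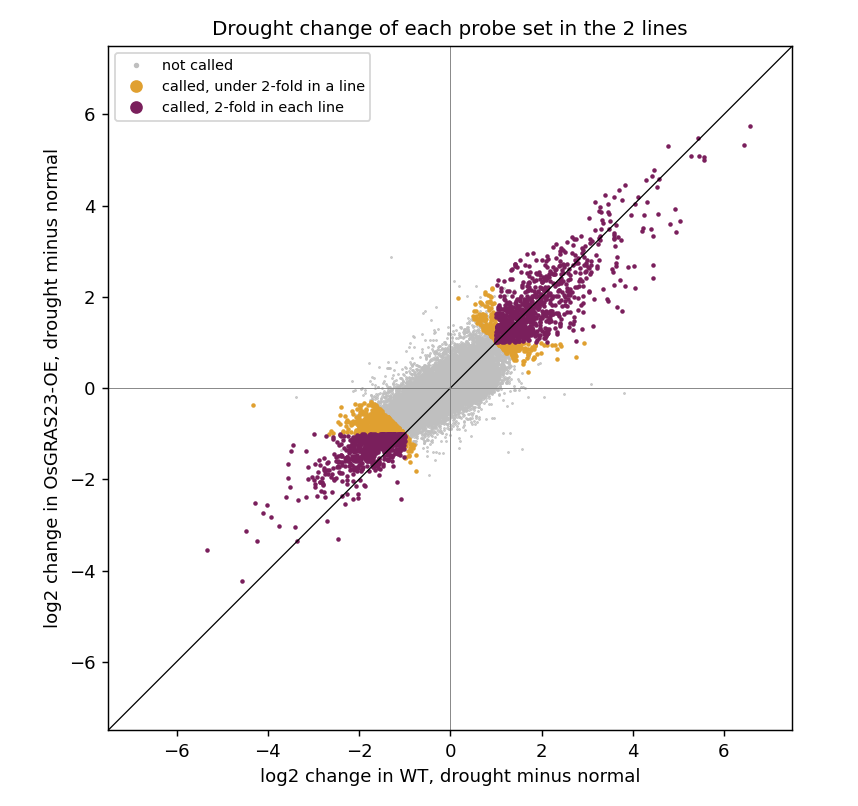
Each point is 1 of 57194 probe sets, with its drought minus normal log2 change in WT on the x axis and in OE on the y axis, and the diagonal marks equal change. The 1636 purple points are called and changed at least 2-fold in each line, 881 up and 755 down, and the falls lie mostly closer to 0 in OE than in WT.

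Genes were named through the RefSeq gene table, which gave 17905 genes with a probe set of their own, 2458 of them with a symbol, and the probe set with the highest mean stood for a gene where several measured it. At the gene level 751 genes (4.19%) were called higher and 1093 (6.1%) lower, and the median log2 change over all genes was -0.22. Over all tested probe sets this median was 0.07, so the value depends on which probe sets stand for genes. List medians and shares below 0 are set against all genes, since these values are not given for genes with a symbol alone. Calls that were at least 2-fold in each line made up 3.19% of genes upwards and 3.02% downwards. Among the genes with a symbol, from which the lists were drawn, 6.18% were higher and 5.86% lower. The 12 largest rises with a symbol that were at least 2-fold in each line were HOX24, HSFA2A, HSP17.4, HSP18.1, CLPB1, HSFA2C, HSP18.6, HSP24.1, HSFB2A, RAB16B, PP2C68 and Hox22. Of these, 5 are chaperones, 3 are named as heat stress factors, 2 are homeodomain-leucine zipper factors, 1 is a dehydrin and 1 is a PP2C phosphatase. The record of HSFA2C, 1 of the 3, also carries the name of another gene, ARD1. The 12 largest falls were NIA1, DREB1B, DREB1A, TPP7, SWEET11, MIF3, Lsi2, LOGL10, IAA14, CIPK10, CYCD4-2 and ABA8OX1. In all of the 24 genes but Lsi2, the drought arrays did not overlap with the normal arrays, a separation that 11.1% of all genes showed upwards and 32.1% downwards.

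**Figure D3:**
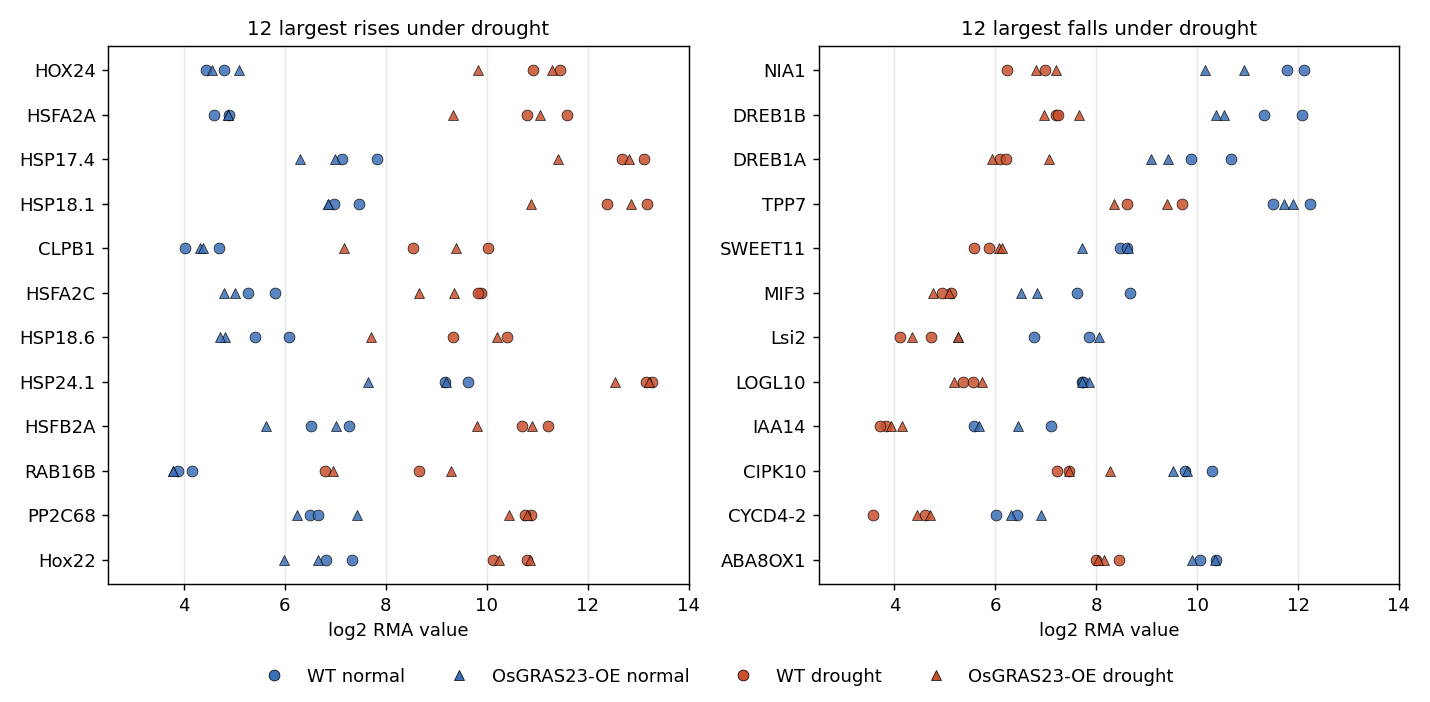
The log2 RMA value on each of the 8 arrays (x axis) is plotted for the 12 genes with the largest rises and the 12 with the largest falls (y axis), with blue for normal, red for drought, circles for WT and triangles for OE. HOX24 moves from 4.44 to 5.10 on the normal arrays to 9.82 to 11.46 on the drought arrays, and NIA1 from 10.16 to 12.12 down to 6.24 to 7.20.

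Many heat stress factors and chaperones rose under drought. Heat stress factors bind the promoters of chaperone genes, and 8 of the 20 measured were higher and 1 was lower, with a median log2 change of 0.98 against -0.22 over all genes. HSFA2A, a class A activator, had log2 values of 4.60 and 4.89 on the WT normal arrays and 4.87 and 4.87 on the OE normal arrays. Under drought it stood at 10.79 and 11.59 in WT and at 11.05 and 9.33 in OE. This was a log2 change of 5.89 (SE 0.37, limma adjusted p = 4.2e-05) from normal values that also lay around the array medians, and both other probe sets of the gene were also called, at 4.18 and 2.53. HSFB2A, a class B member, moved from 5.63 to 7.28 on the normal arrays to 9.81 to 11.20 on the drought arrays, a change of 4.05 (SE 0.33, adjusted p = 0.000112). HSFA2C rose by 4.20 (SE 0.18, adjusted p = 9.63e-06), but its RefSeq record also carries the name ARD1, an enzyme of methionine salvage, so which transcript was measured is not settled, and its other probe set changed by 0.66 (adjusted p = 0.0615). The remaining higher factors were HSFB2B at 2.78, HSFB2C at 2.26, HSFA6B at 1.13, HSFC1A at 1.06 and HSFA4D at 1.04. HSFA3 was lower, with a change of -1.31 (SE 0.25, adjusted p = 0.00639).

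Chaperones keep other proteins folded when cells dry or heat up. Of 34 heat shock protein and chaperone genes, 13 were higher and 0 were lower, with a median log2 change of 0.41, and all 13 rose at least 2-fold in each line. HSP17.4, a small heat shock protein, had log2 values of 6.30 to 7.82 on the normal arrays, and 12.68 and 13.12 in WT and 12.83 and 11.42 in OE under drought. Its change was 5.45 (SE 0.30, adjusted p = 2.31e-05), and the groups were far apart. HSP18.1 followed with 5.28 (SE 0.37, adjusted p = 6.3e-05), and its other probe set gave 5.31. CLPB1, the HSP101 disaggregase that rescues aggregated proteins, lay at 4.03 to 4.70 on the normal arrays, close to the array medians. It reached 8.54 and 10.02 in WT and 9.39 and 7.17 in OE, a change of 4.42 (SE 0.48, adjusted p = 0.000433). HSP24.1 was already well expressed at 7.65 to 9.62 and reached 12.53 to 13.28 (change 4.14, SE 0.31, adjusted p = 8.75e-05). HSP81-1, a cytosolic HSP90, was high on all arrays and still rose by 1.48 (SE 0.14, adjusted p = 0.000214).

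The other 21 chaperone genes were not called. The endoplasmic reticulum chaperones BIP1 and BIP4 had log2 changes of -0.55 and 0.02, HSP81-2 had 0.41 and the plastid CLPB-C had -0.22, none of them called. OE drought replicate 2 was the lowest of the 4 drought arrays for 12 of the 13 higher chaperone genes and 7 of the 8 higher heat stress factors, against 28.3% of all probe sets called higher. Without this array 8 heat stress factors and 15 chaperones were called higher. Over all 8 omissions of an array the counts ran from 7 to 10 and from 13 to 15. Leaving out probe sets able to match several transcripts gave 7 higher heat stress factors and 10 higher chaperones. When a gene took the middle value of its probe sets instead of the brightest one, the counts were 8 and 10.

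**Figure D4:**
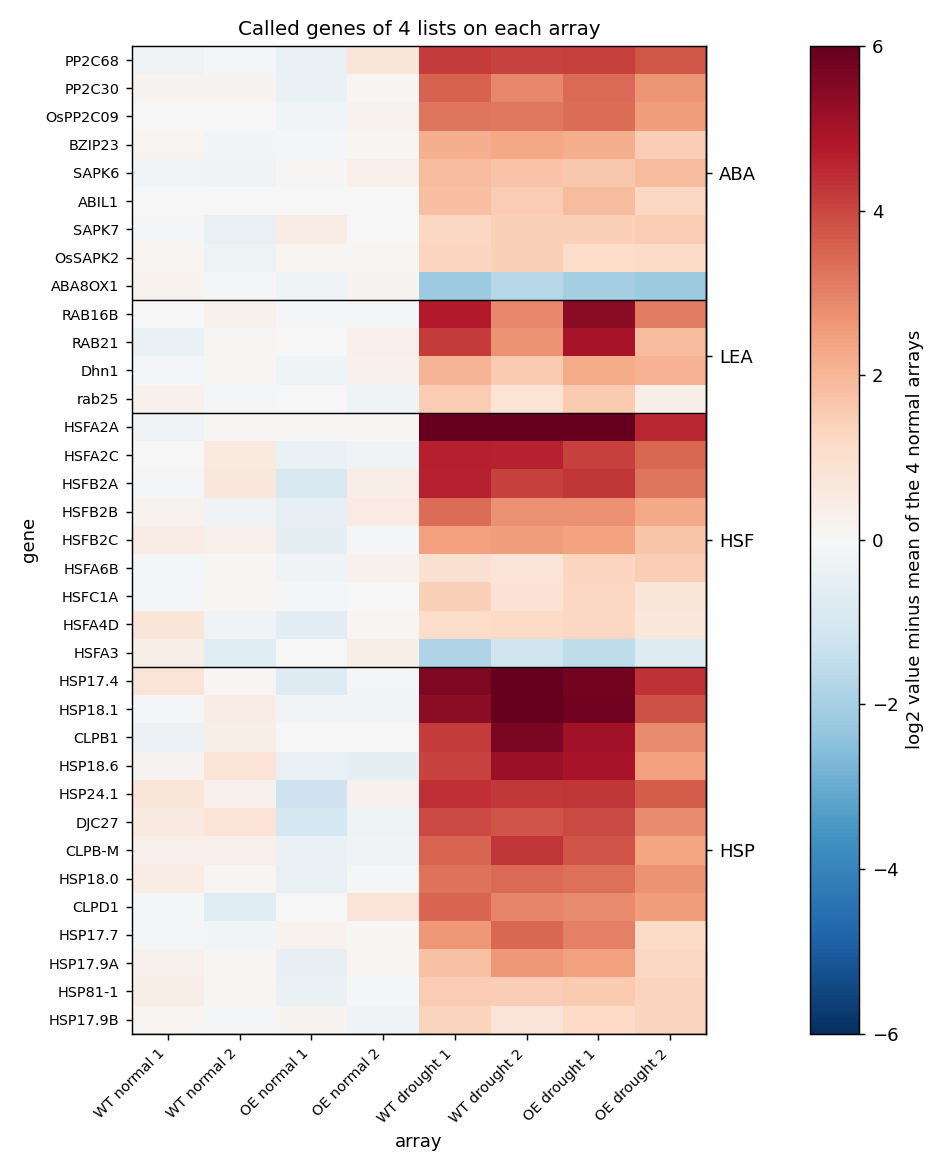
Colours give the log2 value minus the mean of the 4 normal arrays for the called genes of the ABA, LEA, heat stress factor (HSF) and chaperone (HSP) lists (y axis) on each array (x axis, replicate number last). The 4 drought columns are red for all of these genes except ABA8OX1 and HSFA3, and OE drought 2 is paler in the HSF and HSP blocks.

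Phosphatases and kinases of ABA signalling rose under drought. Of 24 ABA genes, 8 were higher and 1 was lower (median log2 change 0.40), and all of the called genes changed at least 2-fold in each line. The count of 8 was the same without each array in turn. The phosphatase PP2C68 had log2 values of 6.50 and 6.65 in WT and 6.24 and 7.43 in OE under normal conditions, and 10.88 and 10.75 in WT and 10.80 and 10.43 in OE under drought. The change was 4.01 (SE 0.23, adjusted p = 3.27e-05) and the 4 drought arrays were close together. PP2C30 rose by 3.12 (SE 0.21, adjusted p = 4.48e-05) and OsPP2C09 by 3.06 (SE 0.18, adjusted p = 3.27e-05), both clade A phosphatases that dampen the ABA signal. The SnRK2 kinases SAPK6, SAPK7 and OsSAPK2 rose by 1.77, 1.40 and 1.25, and the transcription factor BZIP23 by 2.06 (SE 0.17, adjusted p = 0.000124), from 10.06 to 10.33 on the normal arrays to 11.71 to 12.54 on the drought arrays. ABIL1 rose by 1.62, but its symbol alone placed it in the list, and a role in ABA signalling was not checked. The ABA receptor PYL11 stood at 0.10 (adjusted p = 0.664) and ZEP, a biosynthesis gene, at -0.20 (adjusted p = 0.347), neither called. Genes of ABA synthesis outside the list were not counted here.

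The 1 lower gene of the list breaks ABA down. ABA8OX1, an ABA hydroxylase of the cytochrome P450 family, had log2 values of 10.37 and 10.05 in WT and 9.90 and 10.35 in OE under normal conditions. Under drought it had 8.00 and 8.45 in WT and 8.16 and 8.04 in OE, a change of -2.01 (SE 0.15, adjusted p = 8.01e-05) of nearly the same size in WT (-1.99) and OE (-2.03). The related ABA8OX2 stood at 0.15 (adjusted p = 0.62).

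LEA proteins and dehydrins shield membranes and proteins in drying cells. Of 8 measured, 4 were higher and 0 lower, and all 8 had a change above 0 (median 1.28). The higher count ran from 3 to 6 over the omissions of an array, and was 6 without WT drought replicate 2. RAB16B, a dehydrin, had 3.89 and 4.16 in WT and 3.78 and 3.77 in OE under normal conditions, and 8.66 and 6.79 in WT and 9.30 and 6.95 in OE under drought (change 4.03, SE 0.50, adjusted p = 0.000896). RAB21 behaved alike, from 4.39 to 5.08 to values of 8.96 and 7.49 in WT and 9.75 and 6.67 in OE (change 3.44, SE 0.56, adjusted p = 0.00312). For both genes, drought replicate 1 was higher than drought replicate 2 in WT and in OE. Dhn1 rose by 1.96 (SE 0.16, adjusted p = 0.000112) from a high level of 11.02 to 11.54, and its 2 other, dimmer probe sets were not called, at -0.28 and -0.21. The remaining higher member was rab25 at 1.07. LEA19 changed by 1.49 with an adjusted p of 0.051, and its drought arrays (5.07 to 7.27) overlapped with its normal arrays (3.92 to 5.46).

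Among transcription factors the largest rise of all named genes was that of HOX24. This class I homeodomain-leucine zipper (HD-Zip) factor had log2 values of 4.78 and 4.44 in WT and 4.55 and 5.10 in OE under normal conditions, and 11.46 and 10.91 in WT and 11.29 and 9.82 in OE under drought. The change was 6.15 (SE 0.32, adjusted p = 1.59e-05). The normal values lay around the array medians and were not tested against background, so no linear fold is given. Its close relative Hox22 rose by 3.81 (SE 0.26, adjusted p = 5.21e-05), from 5.98 to 7.32 to 10.12 to 10.85. Over the family, 4 of 31 HD-Zip genes (12.9%) were higher and 2 (6.45%) were lower, with a median of -0.18. Of all genes with a symbol, 6.18% were higher and 5.86% lower. The other 2 higher members were hox14 at 1.71 and HOX12 at 1.05, and the lower ones were Hox21 at -1.66 (SE 0.16, adjusted p = 0.000278) and HOX4 at -1.61 (SE 0.36, adjusted p = 0.0126).

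DREB1 genes, activators best known in rice for cold induction, went down. DREB1B had log2 values of 12.08 and 11.32 in WT and 10.53 and 10.38 in OE under normal conditions, and 7.21 and 7.25 in WT and 6.97 and 7.67 in OE under drought. Its change was -3.80 (SE 0.29, adjusted p = 8.8e-05), or 13.9-fold lower. DREB1A fell from 9.08 to 10.66 on the normal arrays to 5.94 to 7.07 on the drought arrays (change -3.43, SE 0.33, adjusted p = 0.000244), and DREB1G by 1.16 (SE 0.18, adjusted p = 0.00218). The call of DREB1G was lost without WT drought replicate 1, with a log2 change of -0.96. Of the 12 AP2/ERF and DREB genes, 0 were higher and these 3 were lower. DREB2A, a drought-responsive activator, stood at 0.85 (adjusted p = 0.00829), a change under 2-fold.

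The NAC, bZIP and MYB lists each had higher and lower genes, and the WRKY list had higher genes only. Of 8 NAC genes, NAC068 rose by 1.94 (SE 0.18, adjusted p = 0.000177) and NAC071 by 1.31 (SE 0.24, adjusted p = 0.00497), and both of the other probe sets of NAC071 were called, at 1.75 and 1.62. NAC2 fell by 1.16, a call lost without WT normal replicate 2, where the change was just under 2-fold. Of 21 bZIP genes, BZIP23 and the unfolded protein response factor BZIP60 (1.30, SE 0.11, adjusted p = 0.000112) were higher, and BZIP02 (-1.24) and TGAL6 (-1.04, adjusted p = 0.0489) were lower, and the lower count was 1 when any of the 4 WT arrays was left out and 3 without OE normal replicate 1. The MYB list had 2 higher and 5 lower genes of 11. JAMYB, named for its induction by jasmonate, rose by 2.04 (SE 0.25, adjusted p = 0.000799) and MPH1 by 1.49, while MYBAS1 (-1.88), GAMYB (-1.20) and myb17 (-1.14) fell the most. Of 6 WRKY genes, WRKY62 (1.25, adjusted p = 0.0422) and WRKY24 (1.08, adjusted p = 0.0131) were higher, but without WT normal replicate 2, or OE normal replicate 1, neither was called. The TGAL6 call was kept only without OE normal replicate 1 or OE drought replicate 2 among the 8 omissions.

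Part of the jasmonate genes rose under drought. Jasmonate is made from lipids by lipoxygenases (LOX), AOS, AOC and OPR enzymes, and JAZ proteins repress its responses and are induced by it. Of 39 genes, 11 were higher and 0 lower, with a median log2 change of 0.44, and 6 of the 11 rose at least 2-fold in each line. OPR6 stood at 4.43 to 5.15 on the normal arrays and at 7.04 and 5.06 in WT and 6.95 and 7.31 in OE under drought (change 1.93, SE 0.37, adjusted p = 0.00601), so WT drought replicate 2 overlapped with the normal arrays. JAZ5 had 6.99 and 6.97 in WT and 8.29 and 8.32 in OE under normal conditions, and 9.61 and 9.87 in WT and 9.10 and 9.58 in OE under drought (change 1.90, SE 0.30, adjusted p = 0.00285). Its normal level thus lay higher in OE than in WT, and its change was 2.76 in WT and 1.04 in OE, a difference that did not pass the interaction test. CM-LOX1, a lipoxygenase, changed by 1.95 (SE 0.58, adjusted p = 0.0407), with drought arrays (7.58 to 9.65) overlapping with normal arrays (5.89 to 8.32), and its call was lost without each array but OE normal replicate 2 and OE drought replicate 1. The higher count was 7 when either WT drought array was omitted.

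Ethylene and growth hormone genes had calls in each direction. ACS2, which makes the ethylene precursor, rose from 5.32 to 6.26 on the normal arrays to 8.64 and 8.51 in WT and 8.53 and 7.87 in OE under drought (change 2.62, SE 0.24, adjusted p = 0.000189). ACO1 (1.14), the next enzyme of the pathway, was higher, and EIL1B, an ethylene signalling factor, was lower (-1.43, SE 0.24, adjusted p = 0.0035), out of 12 listed genes. MHZ4 (1.02) was also higher, but its symbol alone placed it in this list, and a role in ethylene synthesis or signalling was not checked. Only ACS2 was called higher when OE normal replicate 2 was omitted. Of 49 gibberellin, cytokinin and brassinosteroid genes, 3 (6.12%) were higher and 7 (14.3%) lower, beside 6.18% and 5.86% of all genes with a symbol (median -0.13). CKX4, a cytokinin-degrading oxidase, rose by 2.78 (SE 0.22, adjusted p = 0.0001), from 5.22 to 6.33 to 8.44 to 8.94, and CKX5 rose by 1.06. LOGL10, named for its likeness to the cytokinin-activating enzyme LOG, had 7.71 and 7.74 in WT and 7.87 and 7.71 in OE under normal conditions, and 5.37 and 5.56 in WT and 5.74 and 5.18 in OE under drought (change -2.30, SE 0.13, adjusted p = 3.27e-05).

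GA20OX3, a gibberellin synthesis gene, rose by 1.19, while the brassinosteroid receptor BRI1 fell by 1.27 (SE 0.14, adjusted p = 0.000527) and the cytokinin response regulator RR1 by 1.30 (SE 0.36, adjusted p = 0.0302). The lower count in this group was 2 when WT normal replicate 2 was omitted and 4 when WT drought replicate 2 was. RR1 was called only without WT normal replicate 1, OE normal replicate 2 or OE drought replicate 1, and CKX5 was not called without WT normal replicate 2. Of 60 auxin genes, 2 (3.33%) were higher and 7 (11.7%) lower, beside 6.18% and 5.86% of all genes with a symbol (median -0.30). IAA14, an Aux/IAA repressor of auxin responses, fell from 5.57 to 7.10 to 3.73 to 4.15 (change -2.29, SE 0.31, adjusted p = 0.0012). IAA31 fell by 1.57 and the auxin carrier gene PIN5A by 1.43, and GH3-8 (1.16) and IAA9 (1.14) rose, neither of them called without WT drought replicate 1.

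Part of the genes of cell division and the cytoskeleton fell under drought. Of 70 histone, cyclin, kinase, replication and tubulin genes, 15 were lower and 1 was higher, and 54 were not called. A change below 0 was found in 65 of the 70 (median -0.52), against 66.5% of all genes. CYCD4-2, a D-type cyclin that starts the cell cycle, had 6.01 and 6.43 in WT and 6.90 and 6.30 in OE under normal conditions, and 3.58 and 4.62 in WT and 4.70 and 4.45 in OE under drought (change -2.08, SE 0.23, adjusted p = 0.000459). CYCD3-1 fell by 1.93 (SE 0.18, adjusted p = 0.000174) and the tubulin gene TUB8 moved from 10.18 to 10.39 down to 8.36 to 8.86 (change -1.64, SE 0.12, adjusted p = 8.75e-05). Lower calls also fell on MCM3, MCM4 and MCM5 of the replication helicase (-1.02, -1.17 and -1.10), on the replication clamp PCNA (-1.22) and on the histone gene H2B.10 (-1.48). The mitotic cyclin CYCB1-1 stood at -0.31 (adjusted p = 0.277), and the 1 higher gene was the kinase gene CDKG-1 at 1.16. The 15 lower calls dropped to 8 when WT normal replicate 2 was left out. Of the 13 markers of dividing tissue, 4 were lower, and their summed level was 13.04 to 13.72 on the normal arrays and 12.41 to 12.85 on the drought arrays.

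The largest fall of a gene with a symbol was that of NIA1, in nitrate assimilation. This nitrate reductase gene had log2 values of 11.78 and 12.12 in WT and 10.16 and 10.94 in OE under normal conditions, and 6.98 and 6.24 in WT and 7.20 and 6.81 in OE under drought. The change was -4.44 (SE 0.36, adjusted p = 0.000111), or 21.7-fold lower. Its other probe set stayed at 4.40 to 5.11 on all 8 arrays and was not called (0.15, adjusted p = 0.453). Elsewhere in the list of 24 nitrogen genes only the ammonium transporter AMT1 was called, at 1.03 (SE 0.25, adjusted p = 0.0179), which was lost without WT normal replicate 1, OE normal replicate 1 or OE drought replicate 2. The plastid glutamine synthetase GLN2 stood at -0.31 (adjusted p = 0.135), and none of the 21 phosphate genes was called.

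Sugar genes moved in single members rather than as a list. Of 64, 3 (4.69%) were higher and 5 (7.81%) lower, beside 6.18% and 5.86% of all genes with a symbol. The median was 0.01, which was -0.02 after quantile normalization and -0.03 after median centring. RAmy3D, an alpha-amylase that degrades starch and is known for induction by sugar starvation, had 5.29 and 5.33 in WT and 5.67 and 6.30 in OE under normal conditions, and 8.58 and 8.41 in WT and 9.08 and 9.83 in OE under drought (change 3.33, SE 0.19, adjusted p = 3.1e-05). TPP7, a trehalose 6-phosphate phosphatase, was among the brightest genes before drought at 11.51 to 12.23 and fell to 8.62 and 9.70 in WT and 8.36 and 9.41 in OE (change -2.82, SE 0.29, adjusted p = 0.000332). The probe set used for TPP7 can match several transcripts, and its other, much dimmer probe set was not called, at -0.22. Other members of its family differed in direction, with TPP9 at 1.86 (SE 0.27, adjusted p = 0.00187) and TPP1 at -1.27. SWEET11, a sucrose exporter, fell from 7.73 to 8.62 to 5.58 to 6.14 (change -2.44, SE 0.22, adjusted p = 0.000156), and the cell wall invertase CIN2 fell by 1.29. Among the 11 genes of osmolyte synthesis, RFS, named for raffinose synthase, rose by 2.39 (SE 0.20, adjusted p = 0.000123) and ADC2, the arginine decarboxylase of polyamine synthesis, by 1.98 (SE 0.31, adjusted p = 0.00244). The proline synthesis genes P5CS1 and P5CS2 stood at -0.20 and 0.60, neither called.

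Aquaporins, the water channels of membranes, included no higher gene among 25, beside 6.18% of all genes with a symbol. A change below 0 was found in 19 of them (median -0.37), against 66.5% of all genes, with or without a symbol (median -0.22). Lower calls made up 8% of the list, beside 5.86% of all genes with a symbol. The 2 called lower were PIP1-3, from 7.70 to 9.06 to 6.61 to 7.87 with overlapping arrays (change -1.29, SE 0.32, adjusted p = 0.0203), and the silicon channel Lsi6 (-1.04, SE 0.12, adjusted p = 0.000527). Both calls were lost when WT normal replicate 1 was omitted and when WT drought replicate 1 was, and over all omissions 0 to 4 genes were lower. The abundant PIP1-2 stood at -0.32 (adjusted p = 0.143) with values of 12.52 to 13.31.

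Ion and metal transporters had 4 higher (4.94%) and 6 lower (7.41%) of 81, beside 6.18% and 5.86% of all genes with a symbol. HAK27, a potassium transporter, rose by 1.91 (SE 0.29, adjusted p = 0.0024), and the putative metal transporter YSL12 by 1.40. Lsi2, the silicon exporter of roots, had 6.76 and 7.86 in WT and 5.27 and 8.05 in OE under normal conditions, and 4.10 and 4.72 in WT and 4.35 and 5.27 in OE under drought (change -2.37, SE 0.55, adjusted p = 0.0142). The iron transporter IRT1 fell by 1.61 (SE 0.44, adjusted p = 0.0296) and the vacuolar iron transporter VIT1.2 by 1.56 (SE 0.43, adjusted p = 0.0289), a call lost without each of WT normal replicate 1, OE normal replicate 1, WT drought replicate 2 and OE drought replicate 2. Lsi2 and IRT1 are root markers whose normal arrays spread by more than 2 log2 units, with replicate 2 above replicate 1 in both lines, and the root marker HAK1 rose by 1.19. Lsi2 was not called without WT drought replicate 1 (adjusted p = 0.0568), and IRT1 was not called without WT drought replicate 1, WT drought replicate 2, WT normal replicate 2 or OE normal replicate 2. The part of root RNA in these falls was not tested.

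Of 27 photosynthesis genes, 1 was called. FNR, a ferredoxin-NADP reductase gene, was lower (-1.47, SE 0.27, adjusted p = 0.00503), and the list median was -0.28 against -0.22 over all genes. A second gene was called lower when WT drought replicate 2 or OE drought replicate 1 was omitted. LHCP, a chlorophyll-binding protein, had 13.62 and 13.47 in WT and 13.44 and 13.45 in OE under normal conditions, and 12.67 and 12.53 in WT and 12.74 and 12.18 in OE under drought. Its change of -0.96 had an adjusted p of 0.00141 but fell short of the 2-fold minimum. In chlorophyll turnover, the breakdown gene SGR rose by 1.20 (SE 0.21, adjusted p = 0.00454) and the synthesis gene CHLH fell by 1.10 (SE 0.11, adjusted p = 0.000242), out of 13. The lower count of this list ran from 1 to 3 over the omissions of an array, and was highest when OE drought replicate 1 was omitted. It was 2 when either OE normal replicate 1 or WT drought replicate 2 was omitted. None of the 25 ribosomal protein genes was called, although all 25 had a change below 0 (-0.66 to -0.05, median -0.34), against 66.5% of all genes. Of 68 antioxidant genes, 2.94% were higher and 1.47% lower, beside 6.18% and 5.86% of all genes with a symbol. TRXH (1.06, not called without WT drought replicate 1) and GRXS2 (1.01) were higher. The GRXS2 call was lost without OE normal replicate 1, WT drought replicate 2 or OE drought replicate 2. The peroxidase gene PRX74 was lower (-1.84, SE 0.25, adjusted p = 0.0014), while the catalases CAT-A and CAT-B stood at -0.78 and -0.35.

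Expansins let cell walls extend. Of 90 wall genes, 8 (8.89%) were higher and 2 (2.22%) lower, beside 6.18% and 5.86% of all genes with a symbol, and the median was -0.02 (0.00 after quantile normalization). EXP5 rose by 1.87 (SE 0.23, adjusted p = 0.000849), from 7.93 to 8.48 on the normal arrays to 10.17 and 9.85 in WT and 10.62 and 9.46 in OE. EXLA2 rose by 1.73 (SE 0.13, adjusted p = 8.22e-05) with its other probe set at 1.70, and EXPB11 by 1.71 (SE 0.38, adjusted p = 0.0122). The lignin and phenylpropanoid genes 4CL1 (-1.12) and 4CL2 (-1.14) were the 2 lower ones, and omitting WT normal replicate 2, or WT drought replicate 2, removed both calls. No cellulose synthase gene of the CESA family was called, with changes from -0.71 for CESA5 to 0.10 for CESA6.

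Signalling kinases and the clock completed the lists. Of 100 calcium and MAP kinase genes, 4 (4%) were higher and 9 (9%) lower, beside 6.18% and 5.86% of all genes with a symbol (median -0.01). CIPK10, a kinase of the calcium-sensing CBL network, had 9.77 and 10.30 in WT and 9.52 and 9.79 in OE under normal conditions, and 7.21 and 7.46 in WT and 7.45 and 8.27 in OE under drought (change -2.25, SE 0.24, adjusted p = 0.000419), and its 3 other probe sets were called as well, from -1.97 to -1.29. Its relatives CIPK18 (-1.64) and CIPK5 (-1.57) fell and CIPK17 rose 4.28-fold (adjusted p = 0.000103). The other rises named by the rule were CPK21 (1.31) and CPK9 (1.07), and the 4 higher genes became 2 without OE drought replicate 2. Of 20 clock and light receptor genes, CRYD (1.32) was higher and the blue light receptor PHOT2 (-1.14, SE 0.11, adjusted p = 0.000278) was lower. The clock genes CCA1, GI and PRR73 stood at 0.11, 0.00 and -0.15, with adjusted p of 0.7, 0.983 and 0.338. Among 39 diterpene synthase and cytochrome P450 genes, 4 (10.3%) were higher and 2 (5.13%) lower, beside 6.18% and 5.86% of all genes with a symbol. The lower count was 1 when either WT normal replicate 2 or WT drought replicate 1 was omitted. The largest rise was that of LIS, at 2.25 (SE 0.47, adjusted p = 0.00902), a linalool and not a diterpene synthase gene that its symbol placed here. Its change was 3.13 in WT and 1.36 in OE, a difference that did not pass the interaction test. CPS4, a copalyl diphosphate synthase of phytoalexin synthesis, rose by 1.56.

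**Figure D5:**
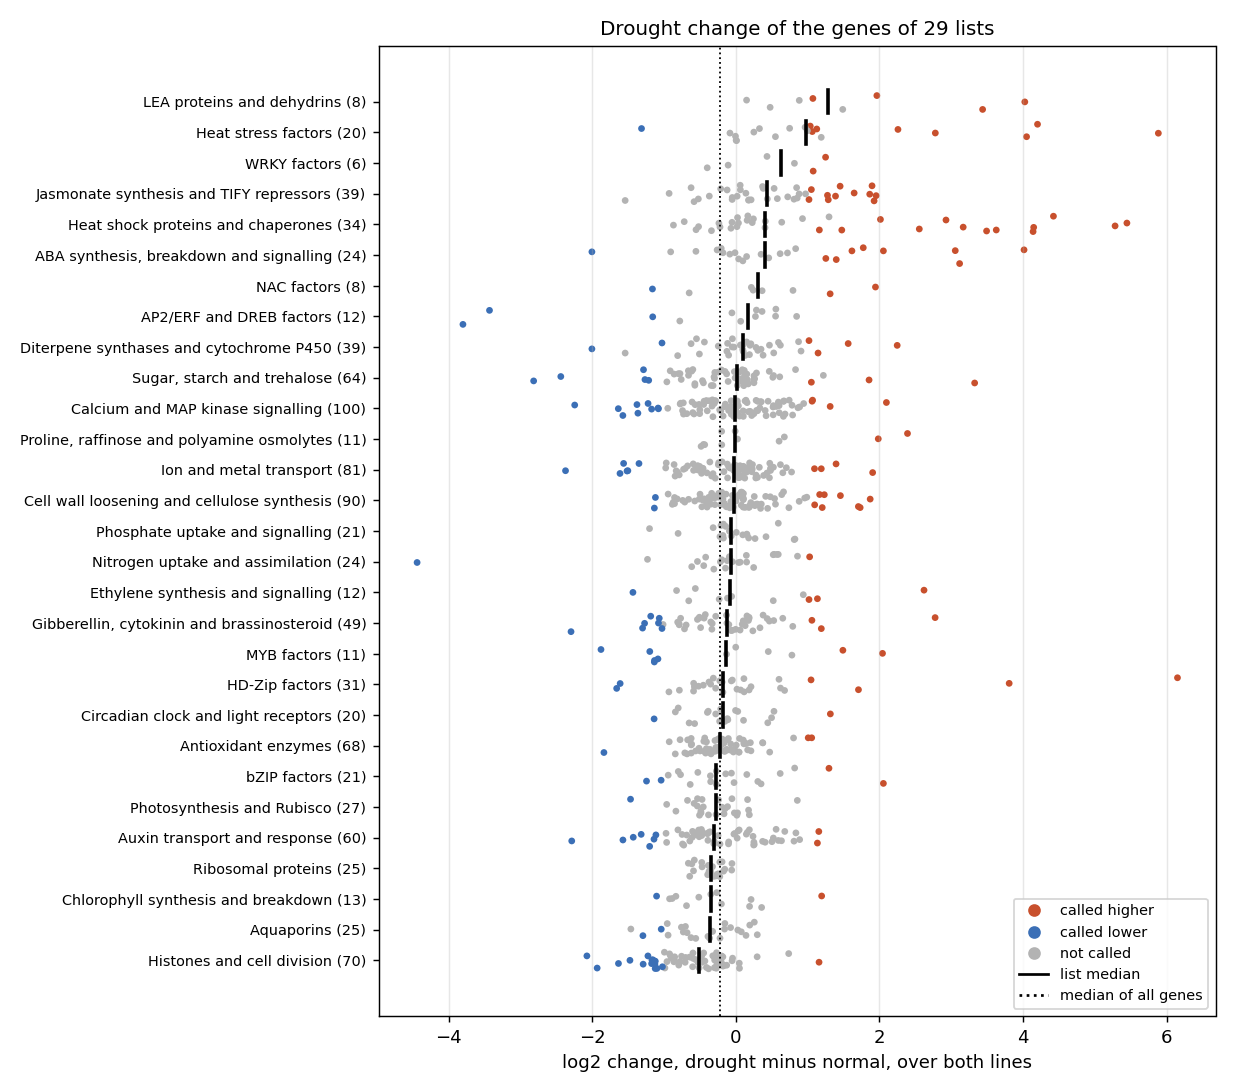
Each point is the log2 change (x axis, drought minus normal over both lines) of 1 gene in 1 of 29 lists (y axis, number of measured genes in brackets), with red for called higher, blue for called lower and grey for not called. Black bars mark list medians and the dotted line the median of all genes (-0.22), and HOX24 (6.15) of the HD-Zip list lies farthest to the right and NIA1 (-4.44) farthest to the left.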

How the data were processed

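The authors' deposited log2 values were RMA expression per probe set of the Affymetrix rice array, for which the submitters' processing notes name Partek 6.5 and RMA. All 8 columns were matched to samples by name and the values were not rescaled for the main analysis. Expression was modelled with limma 3.58.1 in R 4.3.3 (lmFit and eBayes) with condition and line as terms, which left 5 residual degrees of freedom. P-values were adjusted by Benjamini-Hochberg over the 57194 probe sets tested. The difference between lines was the interaction term. In simulated data with the same probe sets, 99 of 100 probe sets shifted by 1.5 and 100 of 100 shifted by 3 on the log2 scale were recovered, with 4 unchanged ones among 203 calls. The simulated noise was independent between probe sets, with no line effect and no shift of a whole array. The recovery therefore does not cover array effects such as those seen when single arrays were left out.

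Probe sets were named through GEO's platform annotation and the RefSeq gene table, and 22436 probe sets had 1 gene, 95 had several and 34663 had none, among them 681 of the 2807 called. Symbols are mostly synonyms of the RefSeq entries and their gene coordinates are not printed, because the array's build is not given in the sources used here. Named genes were the 10 largest rises and 10 largest falls outside the lists, chosen after the values were seen, the 12 largest rises and 12 largest falls with a symbol among genes called and at least 2-fold in each line, and in each list up to 3 rises and 3 falls among called members, with well-known uncalled members given by their values. Other genes named with values were also chosen after their values were seen. The lists were matched by symbol. The comparison, its members and the lists were chosen with earlier results of these data known, and no list was tested as a set.

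The labels call the 2 arrays of a group biological replicates and do not say whether they came from separate cultures, so the p-values measure the spread between these samples. The depth of arrays is not counted, and their number limits the precision. Alternatives were each array left out, each line alone, other thresholds, a replicate block, a model of 4 group means, median centring or quantile normalization, removal of probe sets with a mean below 5 or that can match several transcripts, a robust and trended variance, and the other probe sets of a gene.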

Additional observations from a re-analysis of the deposited data

Results flagged for a closer look

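Among 248 tests of a lone array within the 4 normal or 4 drought arrays of a named gene, 11 flags arose, and chance flags about 1 in 20. OE drought replicate 2 stood apart on the drought side for HSP24.1 at 12.53 (the others 13.16 to 13.28), ACS2 at 7.87 (8.51 to 8.64), BZIP23 at 11.71 (12.41 to 12.54), PDC1 at 9.31 (7.03 to 7.28) and ACO1 at 12.54 (11.90 to 11.97). It was thus the lowest array for 3 of these genes and the highest for the other 2. WT drought replicate 2 stood apart for OPR6 at 5.06 (6.95 to 7.31). On the normal side, the flagged arrays were WT replicate 1 for HSFA2A at 4.60 (4.87 to 4.89), WT replicate 2 for CKX5 at 6.57 (6.89 to 6.90), OE replicate 1 for PP2C30 at 8.92 (9.39 to 9.48), and OE replicate 2 for GRXS2 at 9.56 (8.80 to 8.90) and SWEET11 at 7.73 (8.48 to 8.62).

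In the array controls, which entered no comparison, the mean of the 27 hybridisation spike probe sets was 0.98 higher on the drought arrays than on the normal arrays on the log2 scale. Of the 160 other controls, 1 differed at least 2-fold with no overlap between drought and normal arrays. This was the probe set for 5.8S ribosomal RNA, 1.16 higher under drought, with 4.52 to 4.89 on the normal arrays, 6.55 and 5.41 on the WT drought arrays and 6.19 and 5.42 on the OE drought arrays.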

How the results depend on the processing

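With no fold minimum, 4265 probe sets were higher and 7992 lower under drought. In WT arrays alone 3036 were lower, and in OE arrays alone 718 were higher and 405 lower, in fits on 4 arrays. Leaving out each array in turn gave 1081 to 1248 higher and 1079 to 2203 lower probe sets, and 766 to 967 higher and 568 to 1109 lower ones that changed at least 2-fold in each line. The lowest lower count came without WT normal replicate 2, and the lowest lower count in each line without OE drought replicate 2. The interaction called no probe set under any alternative run. The correlations of replicate 1 deviations between groups ran from -0.17 to 0.10 over all probe sets. Replicate effects shared by part of the genes, such as those seen for RAB16B, RAB21, Lsi2 and IRT1, were not tested. With the replicate block 1189 probe sets were higher and 1623 lower. Of the 124 genes named by the rule or taken from outside the lists, 95 kept their call without each array in turn, and none changed direction under any scaling, filter or omission. As for TPP7, the probe sets used for HSFA2A, HSP18.1, HSP18.6, SWEET11, Hox21, BZIP60, GAMYB, Lsi6, TGAL6, HAK1 and GRXS2 can match several transcripts. Of 29 other probe sets of the named genes 15 were called in the same direction and 14 were not called. Among the uncalled were those of IAA31 (0.06), AMT1 (0.16), CDKG-1 (0.29), TRXH (-0.07) and YSL12 (0.13). Probe sets near the bottom of the scale give compressed changes, and 47.9% of all probe sets had a mean of at least 5.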

Other observations

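Outside the lists, SMR1 and WOX11 had the 2 largest rises with a symbol. SMR1, named for the SIAMESE-related inhibitors of the cell cycle, had log2 values of 6.82 and 6.87 in WT and 7.39 and 7.17 in OE under normal conditions, and 9.89 and 9.69 in WT and 10.11 and 10.67 in OE under drought (change 3.03, SE 0.14, limma adjusted p = 9.63e-06). WOX11, a homeobox factor best known in rice for crown root growth, rose from 3.66 to 4.43 to 6.49 to 7.52 (change 2.92, SE 0.13, adjusted p = 9.63e-06). RSH3, named for enzymes of the plastid alarmone ppGpp, rose by 2.40 and PSY3, a phytoene synthase of carotenoid synthesis that feeds ABA production in rice roots, by 2.27 (SE 0.22, adjusted p = 0.00025). PDC1, a pyruvate decarboxylase of fermentation, rose by 2.67 (SE 0.41, adjusted p = 0.00244), and OE drought replicate 2 was its highest array. PSK5, a peptide growth factor precursor, rose by 2.26, the transporter gene ABCG36 by 2.21, the membrane protein gene PM19L by 2.19, the plastid protease-like gene EGY3 by 2.16 and UGE-1, named for UDP-glucose epimerase, by 2.11.

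Among the falls outside the lists, CEBIP, the chitin receptor of rice, had 7.02 and 7.60 in WT and 7.15 and 7.05 in OE under normal conditions, and 5.36 and 5.53 in WT and 5.78 and 5.84 in OE under drought (change -1.58, SE 0.16, adjusted p = 0.000367). LYP4, a receptor for chitin and peptidoglycan, fell by 1.60 (SE 0.19, adjusted p = 0.000693). GSK2, a kinase gene of brassinosteroid signalling, fell by 1.79 (SE 0.14, adjusted p = 9.43e-05) and the ubiquitin ligase gene TUD1 by 1.81 (SE 0.18, adjusted p = 0.000308). MIF3, a mini zinc finger gene, fell from 6.50 to 8.67 on the normal arrays to 4.77 to 5.11 on the drought arrays (change -2.43, SE 0.30, adjusted p = 0.000878). Nrat1, the aluminium transporter of roots, changed by -1.96 (SE 0.54, adjusted p = 0.0295), with 6.85 and 8.75 in WT and 6.31 and 8.62 in OE under normal conditions. Its call was kept only without WT normal replicate 1, OE normal replicate 1 or OE drought replicate 1.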
